A study of Mus musculus with 12 samples.

Results

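The 10 genes described here are H2-D1, H2-K1, B2m, Tap1, Tap2, Tapbp, Psmb8, Psmb9, Psmb10 and Nlrc5. They encode the classical MHC class I molecules, the machinery that makes and loads their peptides, and a transactivator of several of these genes. They were chosen by gene name from a table of 54532 genes, and each name matched 1 gene. Their expression was measured by RNA sequencing of hyperplastic mammary tissue from MIC mice, which are FVB/N females whose mammary epithelial cells produce both polyoma middle T, an oncogene, and Cre recombinase once doxycycline is given. The groups were 4 libraries of MIC Stat3 ko glands, 4 of MIC Chi3l1 ko glands and 4 of MIC WT glands, named below as Stat3 ko 1 to 4, Chi3l1 ko 1 to 4 and WT 1 to 4. All 3 groups carried the MIC transgenes and received doxycycline at 2 mg/ml, and the sample titles place all of them at week 2. The labels name the knockouts by gene only, give no floxed or null allele, and do not give the animals' ages. They give no batch or litter and do not say whether samples of the same genotype came from separate animals, so p-values reflect the spread among samples, which may be technical. The sample titles call the material lesions, and the samples are called glands here. The RNA came from bulk tissue, which also holds cells without the Cre. In such bulk samples, fewer cells of a type and less RNA per cell cannot be told apart.

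MHC class I molecules show peptides from inside the cell to CD8 T cells. The immunoproteasome, in which Psmb8, Psmb9 and Psmb10 replace the constitutive catalytic subunits, cuts proteins into peptides. The Tap1 and Tap2 transporter carries these into the endoplasmic reticulum, where Tapbp (tapasin) helps load them onto a heavy chain such as H2-D1 or H2-K1 paired with the light chain B2m. Interferon gamma is the best known inducer of these genes, and Nlrc5 drives several of their promoters by binding factors on a conserved promoter module. The series concerns Chi3l1, a secreted chitinase-like protein, and the exclusion of T cells from breast tumours, and these genes determine what a CD8 T cell can see on a tumour cell.

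The promoters of 4 members are shown because they hold matches to the letters TGACG and CCAAT, at one spacing in B2m, H2-D1 and H2-K1 and in the other order in Tap1, and because the members varied together across libraries. Each line gives the 250 bases before the start of the gene from RefSeq (GRCm38.p6), 5′ to 3′ on the strand of the gene. The windows lie at chr2:122147437-122147686 on the plus strand for B2m, chr17:35262844-35263093 on the plus strand for H2-D1, chr17:34000334-34000583 on the minus strand for H2-K1 and chr17:34187306-34187555 on the plus strand for Tap1. Capitals mark matches, on either strand, to the X2 box core TGACG, bound by CREB and ATF factors, to the Y box CCAAT, bound by NF-Y and read as ATTGG on the other strand, to the NF-kappa B consensus and to the interferon-stimulated response element (GAAA and GAAA with any 2 bases between).
B2m: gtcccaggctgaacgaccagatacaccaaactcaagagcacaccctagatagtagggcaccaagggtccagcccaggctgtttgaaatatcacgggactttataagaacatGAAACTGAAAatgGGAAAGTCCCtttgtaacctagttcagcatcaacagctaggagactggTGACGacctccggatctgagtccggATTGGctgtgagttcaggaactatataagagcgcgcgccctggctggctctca
H2-D1: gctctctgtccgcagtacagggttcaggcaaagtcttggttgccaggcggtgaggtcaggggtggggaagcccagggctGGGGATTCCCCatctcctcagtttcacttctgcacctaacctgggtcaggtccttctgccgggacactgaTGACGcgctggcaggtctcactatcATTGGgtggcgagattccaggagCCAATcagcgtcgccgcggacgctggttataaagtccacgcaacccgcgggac
H2-K1: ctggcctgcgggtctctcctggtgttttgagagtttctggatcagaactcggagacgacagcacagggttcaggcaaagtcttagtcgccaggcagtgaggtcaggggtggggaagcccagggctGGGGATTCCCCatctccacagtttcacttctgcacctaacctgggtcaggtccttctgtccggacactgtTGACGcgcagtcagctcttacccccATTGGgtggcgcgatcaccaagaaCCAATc
Tap1: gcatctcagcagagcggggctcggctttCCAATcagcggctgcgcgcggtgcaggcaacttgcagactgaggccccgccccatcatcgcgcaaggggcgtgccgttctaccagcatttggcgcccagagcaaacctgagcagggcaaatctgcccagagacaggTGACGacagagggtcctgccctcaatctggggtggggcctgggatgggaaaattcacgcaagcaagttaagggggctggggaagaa

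RefSeq gave a window of 300 bases, 250 before and 50 after the start, for 8 of the 10 members, and Tap2 and Nlrc5 are named only. TGACG was present in 5 of these 8 (B2m, H2-D1, H2-K1, Psmb9 and Tap1), against 20.8% of all 32851 windows. CCAAT was present in 6 (the same 5 and Tapbp), against 37.4% of all windows. The NF-kappa B consensus was present in B2m, H2-D1 and H2-K1, against 8.46% of windows. The exact letters given above for the interferon-stimulated response element were present in B2m alone, against 3.44%. Those of the STAT element (TTC and GAA with any 3 bases between) were in Psmb8 alone, against 8.30%. Variants of these letters were not searched for, so other members may hold such elements. In B2m, H2-D1 and H2-K1, the first bases of TGACG and ATTGG stood 25 bases apart on the gene's strand. That pair at that spacing was in 0.0944% of all windows, or 31 of them. The spacing was noticed after the sequences were seen. The windows of Psmb9 and Tap1 overlap, since these genes diverge from starts 226 bases apart, and their TGACG and CCAAT matches are the same bases, counted once for each gene above. The match of letters is a description of the reference, which is that of C57BL/6 mice, and FVB/N mice carry another haplotype (q) of the H-2 complex.

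The members were among the more abundant messages of the gland, and their order was nearly fixed. Over the 13643 genes with at least 1 FPKM (fragments per unit of gene length and of sequencing depth, so that genes can be compared per length) in at least 4 of the 12 libraries, B2m ranked 3 by mean FPKM, H2-D1 ranked 8 and H2-K1 ranked 31. All 10 members passed that filter. Tapbp, Psmb8, Psmb10, Tap1, Psmb9 and Tap2 followed at ranks 192 to 759, and Nlrc5 at rank 2540. Of the 9 steps in this order, 7 held in 12 of 12 libraries. Psmb10 exceeded Tap1 in 6 of 12, so these neighbours had no order, and Psmb9 exceeded Tap2 in 10 of 12. The 10 genes together took 0.981% to 1.92% of a library's counts.

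The targeted genes matched the labels. Stat3 was at 12.2 to 18.7 FPKM in Stat3 ko glands, against 46.2 to 49.7 FPKM in WT glands. Chil1, the mouse gene of Chi3l1, was at 0 to 0.0323 FPKM in Chi3l1 ko glands, against 107 to 212 FPKM in WT glands (exact two-sided permutation p = 0.0286 for each, the smallest that 4 against 4 allows). Libraries held 16217143 to 22607123 counts. Mitochondrially encoded genes took 4.79% of counts in Stat3 ko 1, 3.37% in Stat3 ko 2, 2.23% in Chi3l1 ko 2 and at most 1.88% elsewhere, and results below are given without these 3 libraries where that matters. Epithelial markers such as Epcam and Krt8 were present in every library.

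The light chain and the classical heavy chains overlapped between groups, and no difference passed the test. B2m (ENSMUSG00000060802, chr2:122147686-122153083, plus strand, GRCm38) had 3136, 3233, 3728 and 5079 FPKM in Stat3 ko 1 to 4, 4436, 4001, 5196 and 3957 FPKM in Chi3l1 ko 1 to 4, and 4025, 5036, 3380 and 4047 FPKM in WT 1 to 4. The 3 groups overlapped, and the highest library of each was Stat3 ko 4, Chi3l1 ko 3 and WT 2. Differences are given as log2 differences of FPKM + 1 with the standard error of limma's fit to all tested genes, and adjusted p-values are Benjamini-Hochberg values over those genes. B2m differed by -0.13 ± 0.19 between Stat3 ko and WT (adjusted p = 0.653) and by 0.10 ± 0.19 between Chi3l1 ko and WT (adjusted p = 1.0). Under quantile normalization its difference between Stat3 ko and WT was -0.75 (adjusted p = 0.105, limma), still short of the threshold.

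H2-D1 (ENSMUSG00000073411, chr17:35262730-35267499, plus strand) had 2040, 1853, 1955 and 2897 FPKM in Stat3 ko 1 to 4, 2289, 2035, 2546 and 1999 FPKM in Chi3l1 ko 1 to 4, and 2003, 2722, 1718 and 1956 FPKM in WT 1 to 4. The highest and the lowest library of WT enclosed 7 of the 8 knockout libraries. The difference was 0.06 ± 0.19 for Stat3 ko against WT (adjusted p = 0.853) and 0.09 ± 0.19 for Chi3l1 ko against WT. H2-K1 (ENSMUSG00000061232, chr17:33996017-34000333, minus strand) had 528, 725, 762 and 1008 FPKM in Stat3 ko 1 to 4, 873, 788, 1147 and 830 FPKM in Chi3l1 ko 1 to 4, and 778, 970, 663 and 749 FPKM in WT 1 to 4. Stat3 ko 1 was the lowest and Chi3l1 ko 3 the highest of the 12. H2-K1 differed by -0.09 ± 0.20 for Stat3 ko against WT (adjusted p = 0.786) and by 0.20 ± 0.20 for Chi3l1 ko against WT.

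The proportion of the heavy chains was similar in all libraries but 1. The ratio of H2-D1 to H2-K1 FPKM was 3.86 in Stat3 ko 1 and 2.22 to 2.88 in the other 11 libraries. Part of these readings is uncertain, because 12.8% of the 50-base words of H2-D1 transcripts and 9.63% of those of H2-K1 occur in other genes, with H2-Q1 sharing the most with H2-D1 and H2-Q10 the most with H2-K1, and because the deposited counts came from reads of a q haplotype counted on the C57BL/6 reference. The heavy chains were not the members that shared most, since Tapbp shared 23.2% of its words, Psmb8 11.9% and Tap2 11.6%. None of the words of B2m or Psmb10 was shared.

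The peptide transporter and tapasin showed the same overlap. Tap1 (ENSMUSG00000037321, chr17:34187553-34197225, plus strand) had 37.1, 88.1, 103 and 130 FPKM in Stat3 ko 1 to 4, 88.7, 79.6, 109 and 78.0 FPKM in Chi3l1 ko 1 to 4, and 78.9, 104, 65.0 and 92.3 FPKM in WT 1 to 4. Stat3 ko held both the lowest and the highest Tap1 value of the series, a 3.5-fold span and the widest among the members. The difference was -0.04 ± 0.32 for Stat3 ko against WT (adjusted p = 0.942) and 0.07 ± 0.32 for Chi3l1 ko against WT. Tap2 (ENSMUSG00000024339, chr17:34203527-34216321, plus strand), the partner subunit, had 42.0, 62.4, 69.3 and 84.7 FPKM in Stat3 ko 1 to 4, 61.5, 56.1, 77.5 and 52.6 FPKM in Chi3l1 ko 1 to 4, and 53.8, 71.0, 49.3 and 61.4 FPKM in WT 1 to 4. It showed the same library order as Tap1 in Stat3 ko. Its difference was 0.10 ± 0.20 for Stat3 ko against WT (adjusted p = 0.748).

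Tapbp (ENSMUSG00000024308, chr17:33915899-33929288, plus strand) had 115, 162, 192 and 248 FPKM in Stat3 ko 1 to 4, 201, 201, 259 and 192 FPKM in Chi3l1 ko 1 to 4, and 174, 240, 164 and 201 FPKM in WT 1 to 4. In Chi3l1 ko, 3 libraries lay within 192 to 201 FPKM and Chi3l1 ko 3 stood above them. The difference was -0.16 ± 0.21 for Stat3 ko against WT (adjusted p = 0.627) and 0.14 ± 0.21 for Chi3l1 ko against WT. Tapbp lies over Zbtb22 on the same strand for 3421 bases, where Zbtb22 itself reached at most 17.1 FPKM.

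The 3 immunoproteasome subunits are the catalytic beta subunits that cells switch to under interferon. Psmb8 (LMP7, ENSMUSG00000024338, chr17:34197721-34201454, plus strand) had 71.6, 131, 158 and 189 FPKM in Stat3 ko 1 to 4, 160, 138, 171 and 120 FPKM in Chi3l1 ko 1 to 4, and 130, 184, 121 and 155 FPKM in WT 1 to 4. Psmb9 (LMP2, ENSMUSG00000096727, chr17:34181988-34187764, minus strand) had 36.8, 70.2, 85.5 and 101 FPKM in Stat3 ko 1 to 4, 71.4, 61.7, 87.1 and 54.7 FPKM in Chi3l1 ko 1 to 4, and 59.6, 83.9, 46.3 and 65.2 FPKM in WT 1 to 4. In both genes Stat3 ko 1 was the lowest and Stat3 ko 4 the highest of the 12. Psmb9 and Tap1 overlap by 212 bases on opposite strands. Whether counting used the strand is not given in the sources used here, so reads there cannot be told apart.

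Psmb10 (MECL-1, ENSMUSG00000031897, chr8:105935735-105938444, minus strand) had 58.8, 100.005, 113 and 121 FPKM in Stat3 ko 1 to 4, 86.5, 86.4, 115 and 66.2 FPKM in Chi3l1 ko 1 to 4, and 71.1, 109, 64.1 and 90.4 FPKM in WT 1 to 4. It had the highest difference of the members, 0.21 ± 0.25 for Stat3 ko against WT, and did not pass the test (adjusted p = 0.572). Psmb8 differed by -0.17 ± 0.26 (adjusted p = 0.671) and Psmb9 by 0.14 ± 0.29 (adjusted p = 0.754) in that comparison. For Chi3l1 ko against WT the 3 differences were 0.09 ± 0.25 for Psmb10, 0.0022 ± 0.26 for Psmb8 and 0.12 ± 0.29 for Psmb9.

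Nlrc5 (ENSMUSG00000074151, chr8:94434356-94527272, plus strand), which is itself induced by interferon gamma, was the least abundant member. It had 9.39, 23.9, 27.5 and 27.8 FPKM in Stat3 ko 1 to 4, 22, 19.0, 27.6 and 20.7 FPKM in Chi3l1 ko 1 to 4, and 20.5, 26.7, 15.7 and 19.6 FPKM in WT 1 to 4. Stat3 ko 1 lay far below the other 3 libraries of its group. The difference was 0.01 ± 0.30 for Stat3 ko against WT (adjusted p = 0.978) and 0.12 ± 0.30 for Chi3l1 ko against WT.

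**Figure D1:**
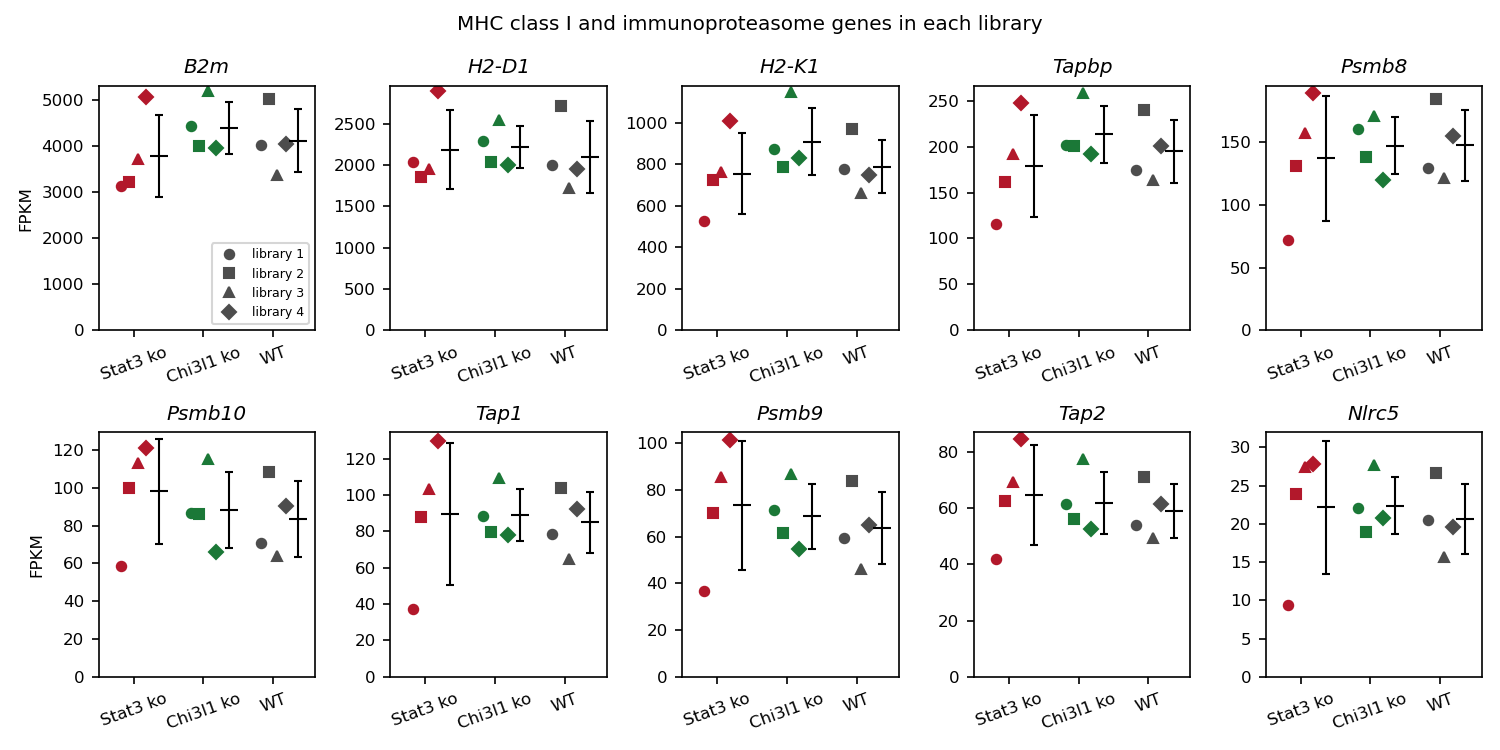
FPKM of each member in the 12 libraries, 1 panel per gene, each axis starting at 0. Points are libraries, shaped by library number, and bars beside them are the mean and SD of 4 libraries. The groups overlap in every panel, and Stat3 ko spreads most, from 37.1 to 130 FPKM for Tap1.

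Loss of Stat3 left no member past the threshold. In Stat3 ko against WT, 0 of the 10 members were called at an adjusted p under 0.05, where 14.0% of all tested genes were (5.61% higher and 8.39% lower in Stat3 ko). At an unadjusted p under 0.05 the count was also 0, where 4654 of the 13643 tested genes passed. On the recovered counts edgeR and DESeq2 called 0 of the 10, where they called 18.0% and 23.4% of all genes they tested. Of the fitted differences, 5 were positive and 5 negative, from -0.17 for Psmb8 to 0.21 for Psmb10, with a median of -0.01, against -0.02 over all tested genes. The 95% intervals of all 10 lay within 1 log2 unit of 0, from -0.75 to 0.78 at their outermost, so changes within that range are not excluded. The members were measured less precisely than most genes, with a median standard error of 0.232, against 0.155 over all tested genes. None of the 10 had groups that did not overlap, where 21.3% of all tested genes did.

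Loss of Chi3l1 likewise left no member past the threshold. In Chi3l1 ko against WT, 0 of the 10 were called by limma, where 0.00733% of all tested genes were, a single gene, Chil1 itself. The count was 0 at an unadjusted p under 0.05, where 222 of the 13643 tested genes passed. With edgeR and DESeq2 0 of the 10 were called, where they called 0.00608% and 0.0193% of the genes they tested. All 10 differences were above 0, from 0.0022 for Psmb8 to 0.20 for H2-K1, with a median of 0.10, against 0.00 over all tested genes. Their standard errors were 0.19 to 0.32, so each difference was smaller than its own error. These errors come from a spread per gene shared by all 3 genotypes, so they include that of Stat3 ko. The median SD of log2 values over the members was 0.464 in Stat3 ko, 0.226 in Chi3l1 ko and 0.275 in WT. The intervals ran from -0.63 to 0.78 at their outermost. None of the members had groups that did not overlap, where 2.48% of tested genes did.

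Between the knockouts, Stat3 ko against Chi3l1 ko, limma called 0 of the 10, where it called 13.2% of all tested genes. Of the members 0 had an unadjusted p under 0.05, where 4329 of the 13643 tested genes did. edgeR and DESeq2 called 0 of the 10, where they called 15.1% and 20.8% of the genes they tested. B2m, at -0.23 ± 0.19, was at -0.64 under quantile normalization (adjusted p = 0.163). The lowest differences were Tapbp, -0.29 ± 0.21 (adjusted p = 0.373), and H2-K1, -0.29 ± 0.20 (adjusted p = 0.352), and the highest was Psmb10, 0.12 ± 0.25. The median was -0.11, against -0.02 over all tested genes. Here too 0 of the 10 had groups without overlap, where 17.0% of tested genes did. The comparisons share libraries, so they are not independent of each other.

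Library Stat3 ko 1 set much of the values of its group. It was the lowest of the 12 libraries for 9 of the 10 members (WT 3 was for H2-D1), and its mean deviation over the 10 was -0.69 log2 units from the mean of the 12 libraries. Without it, 9 of the 10 differences of Stat3 ko against WT were positive, with a median of 0.20 and a range of -0.05 to 0.44. None was then called (lowest adjusted p = 0.171, limma), and 0 had an unadjusted p under 0.05, where 4118 of 13439 tested genes did. Without the 3 libraries with over 2% mitochondrial counts, all 10 were positive, with a median of 0.32 and a range of 0.09 to 0.57, against a median of 0.00 over all tested genes. Of the 10, 3 then had an unadjusted p under 0.05, where 3244 of 13032 tested genes did. At an adjusted p under 0.05 the count was 0 (lowest 0.181, limma), where 553 tested genes were higher and 661 lower. Stat3 ko 1 also had the highest share of mitochondrial counts and the highest adipocyte markers of the 12 libraries, and their part in the low values was not tested.

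**Figure D2:**
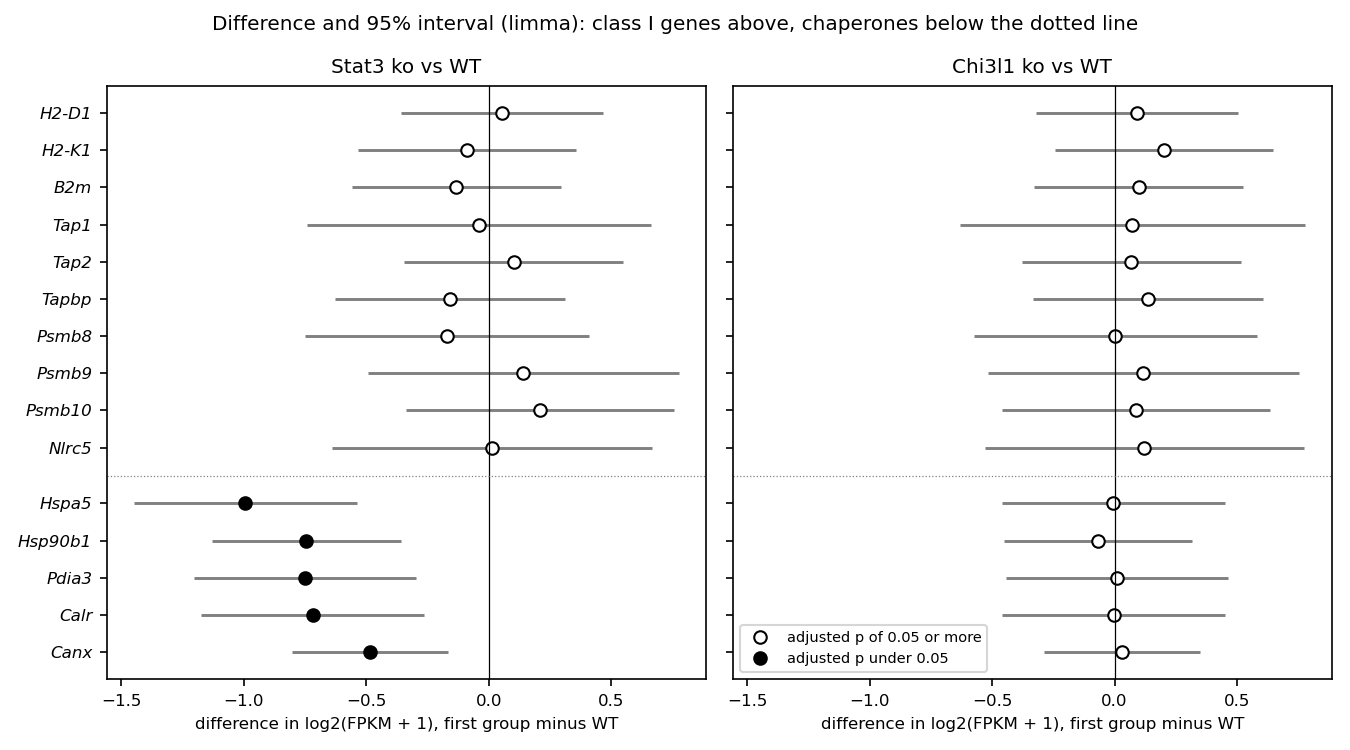
Difference in log2(FPKM + 1) with its 95% interval from limma, Stat3 ko minus WT on the left and Chi3l1 ko minus WT on the right, for the 10 members above the dotted line and the 5 folding partners that passed in Stat3 ko below it. Filled points have an adjusted p under 0.05. All 10 members lie across 0 in both panels, while Hspa5 lies at -0.99 in Stat3 ko.

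The members varied together from library to library within each genotype. Stat3 ko 4, Chi3l1 ko 3 and WT 2 were the highest library of their group for all 10 members. WT 3 was the lowest of its group for 10, Stat3 ko 1 for 9 and Chi3l1 ko 4 for 8. Mean deviations over the members were 0.44 in Stat3 ko 4, 0.37 in Chi3l1 ko 3 and 0.31 in WT 2, against -0.33 in WT 3. The difference between libraries of 1 genotype was thus larger than any fitted difference between genotypes. The SD of log2 values had a median over the members of 0.464 in Stat3 ko, 0.226 in Chi3l1 ko and 0.275 in WT, where all tested genes had 0.298 in Stat3 ko, 0.146 in Chi3l1 ko and 0.136 in WT. The SD was largest in Stat3 ko for 10 of 10 members, as it was for 76.3% of all tested genes.

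Markers of other cells followed the members in part. The 8 macrophage markers averaged, in log2(FPKM + 1), 6.61, 6.17, 6.16 and 6.88 in Stat3 ko 1 to 4, 5.65, 5.81, 5.96 and 5.60 in Chi3l1 ko 1 to 4, and 5.66, 6.19, 5.93 and 5.38 in WT 1 to 4. They were highest in Stat3 ko 4, Chi3l1 ko 3 and WT 2, the libraries where the members were highest in each group. The low ends did not match in the same way. Stat3 ko 1, lowest of its group for 9 members, had the next highest macrophage markers of its group. WT 3, lowest of WT for all 10 members, had more of them than WT 1 and WT 4. For the 11 T cell markers the averages were 2.26, 4.66, 3.86 and 1.74 in Stat3 ko 1 to 4, 1.52, 1.52, 1.97 and 1.42 in Chi3l1 ko 1 to 4, and 1.29, 2.04, 1.37 and 1.33 in WT 1 to 4. These too peaked in Chi3l1 ko 3 and WT 2, as did leukocyte markers (4.43 in Chi3l1 ko 3 and 4.5 in WT 2). In Stat3 ko the order was another. Stat3 ko 4, highest for 7 members, had the lowest T cell markers of its group, and Stat3 ko 2, with the highest, was the lowest or next lowest of its group for all 10 members. The 6 B cell markers averaged 2.19, 6.31, 4.88 and 1.18 in Stat3 ko 1 to 4, 0.85 to 1.11 in Chi3l1 ko and 0.72 to 1.36 in WT. Ms4a1 of that list was at 0 in at least 1 library, and none of the T cell or macrophage markers was. The 8 epithelial markers averaged 6.48, 5.75, 7.08 and 7.01 in Stat3 ko 1 to 4, 7.26 to 7.58 in Chi3l1 ko and 7.03 to 7.69 in WT. The 6 adipocyte markers averaged 8.93, 5.4, 5.45 and 4.64 in Stat3 ko 1 to 4, 2.93 to 5.89 in Chi3l1 ko and 2.37 to 4.08 in WT. The part of these cells in the members' levels was not tested.

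**Figure D3:**
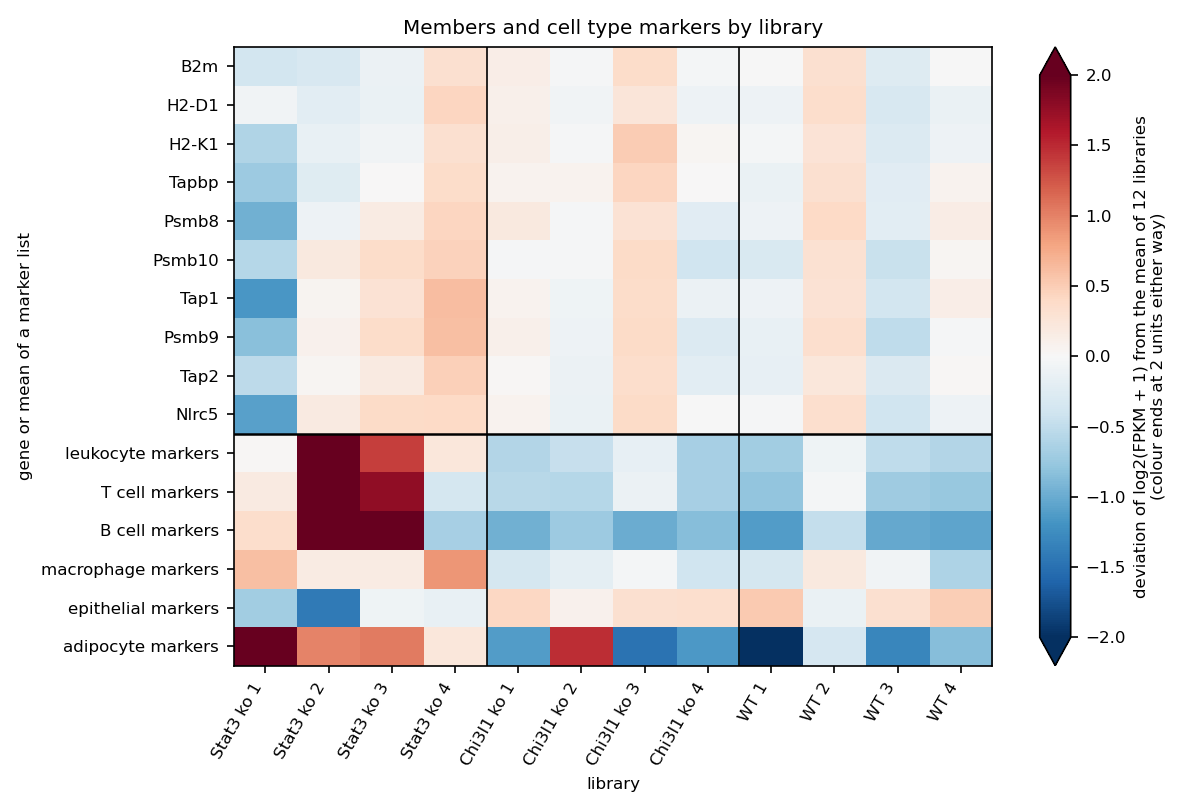
Deviation of log2(FPKM + 1) from the mean of the 12 libraries, with members and marker list means down the page and libraries across it. Colour ends at 2 log2 units either way. The members share a column pattern, low in Stat3 ko 1 (mean -0.69) and high in Stat3 ko 4 (mean 0.44), while T and B cell markers are highest in Stat3 ko 2.

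Nlrc5 varied with 8 of the 9 other members over the 12 libraries (two-sided permutation test, Benjamini-Hochberg adjusted over the 9). Pearson's r was 0.97 for Tap1 (Spearman's rho 0.87, p = 3e-05, adjusted p = 9e-05), 0.94 for Psmb9 (rho 0.93, p = 1e-05, the smallest that 100000 permutations can give, adjusted p = 9e-05), 0.91 for Psmb8 (rho 0.80, p = 0.00046, adjusted p = 0.00075) and 0.90 for Tap2 (rho 0.93, p = 2e-05, adjusted p = 9e-05). It was 0.85 for Psmb10 (rho 0.92, p = 5e-05, adjusted p = 0.00011), 0.85 for Tapbp (rho 0.66, p = 0.0012, adjusted p = 0.0016), 0.85 for H2-K1 (rho 0.73, p = 0.0005, adjusted p = 0.00075) and 0.68 for B2m (rho 0.62, p = 0.0092, adjusted p = 0.01). H2-D1, with r of 0.50 and rho of 0.43, did not pass (p = 0.1, adjusted p = 0.1). Of all tested genes, 0.00733% had an r with Nlrc5 at least that of Tap1, 0.044% at least that of Psmb9, and 17.6% at least that of H2-D1.

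Several of these relations rested on the extreme libraries. Without Stat3 ko 1 and WT 3, the farthest from the median of Nlrc5, r was 0.91 for Psmb9, 0.88 for Tap2, 0.85 for Tap1 and 0.83 for Psmb10, with adjusted permutation p of 0.005 to 0.0098. It was then 0.69 for Psmb8 (adjusted permutation p = 0.063), 0.61 for H2-K1 (0.083), 0.55 for Tapbp (0.12) and 0.45 for B2m (0.19), so these no longer passed. On deviations from the group means, with permutation within groups, 7 of the 9 passed, with r of 0.89 to 0.97, and B2m, at 0.70 (adjusted p = 0.076), and H2-D1, at 0.49 (adjusted p = 0.21), did not. Leaving out Stat3 ko 1 alone took B2m to 0.58 (adjusted permutation p = 0.063) and H2-D1 to 0.71 (adjusted permutation p = 0.019). Among all 45 pairs of members the median r was 0.86, from 0.50 for H2-D1 with Nlrc5 to 0.98 for Tap2 with Psmb9.

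**Figure D4:**
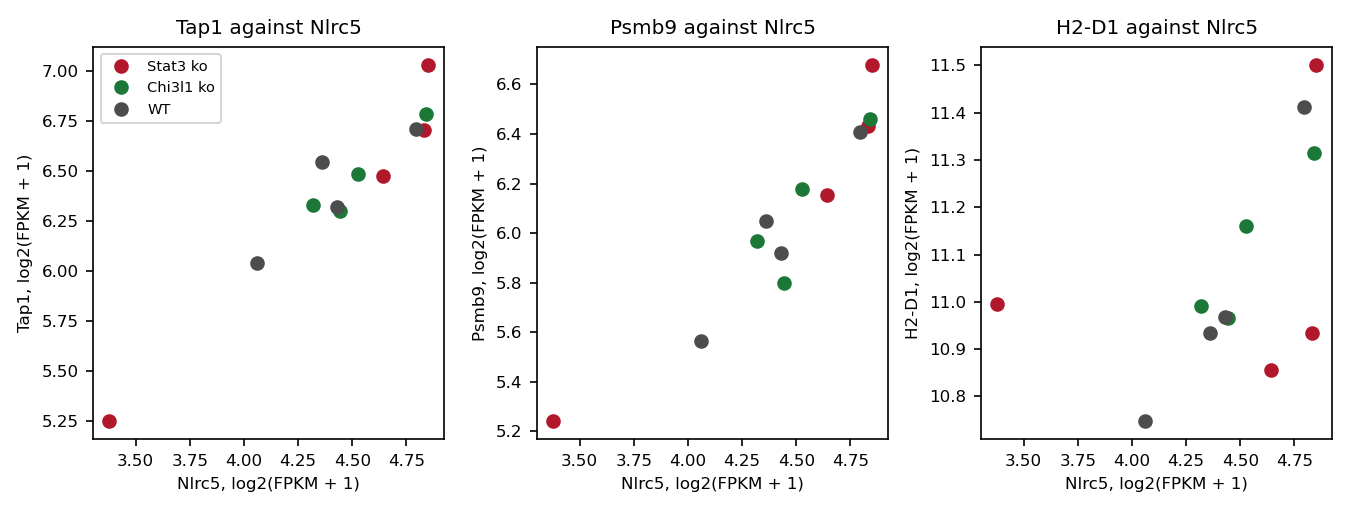
Tap1, Psmb9 and H2-D1 against Nlrc5, all in log2(FPKM + 1), with 1 point per library coloured by group. Tap1 (r = 0.97) and Psmb9 (r = 0.94) follow Nlrc5 in all groups, and Stat3 ko 1 is the lowest point on both axes. H2-D1 (r = 0.50) in Stat3 ko 1, at 2040 FPKM, lies within the range of the other libraries.

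The balance between the immunoproteasome and the constitutive proteasome was read as the ratio of FPKM of each inducible subunit to the one it replaces, within a library. Psmb8 over Psmb5 was 1.5, 2.29, 2.91 and 2.73 in Stat3 ko 1 to 4, 2.23, 2.00, 2.69 and 2.31 in Chi3l1 ko 1 to 4, and 1.98, 2.41, 2.03 and 2.19 in WT 1 to 4. Psmb9 over Psmb6 was 0.627, 1.04, 1.16 and 1.2 in Stat3 ko 1 to 4, 0.923, 0.817, 1.03 and 0.768 in Chi3l1 ko 1 to 4, and 0.786, 0.963, 0.616 and 0.765 in WT 1 to 4. Psmb10 over Psmb7 was 2.48, 4.07, 4.37 and 4.33 in Stat3 ko 1 to 4, 3.0, 2.82, 4.63 and 2.77 in Chi3l1 ko 1 to 4, and 2.57, 3.31, 2.64 and 3.09 in WT 1 to 4. In all 3 ratios, Stat3 ko 2, 3 and 4 lay above the WT mean and Stat3 ko 1 below it.

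None of the 9 comparisons of ratios passed an exact two-sided permutation test of their log2 values. The lowest p was 0.171 (0.735 adjusted over the 9), for Psmb10 over Psmb7 in Stat3 ko against WT, a difference of 0.37. Psmb9 over Psmb6 differed by 0.34 in that comparison (exact permutation p = 0.257) and Psmb8 over Psmb5 by 0.09 (exact permutation p = 0.743). Without Stat3 ko 1 the differences were 0.56 for Psmb10 over Psmb7, 0.55 for Psmb9 over Psmb6 and 0.30 for Psmb8 over Psmb5. Without the libraries with over 2% mitochondrial counts they were 0.59, 0.61 and 0.39 in that order. None passed in either run, and in the second too few libraries were left for any to pass. In Chi3l1 ko against WT the differences were 0.10 for Psmb8 over Psmb5, 0.19 for Psmb9 over Psmb6 and 0.16 for Psmb10 over Psmb7. With 4 libraries against 4, no unadjusted p under 0.0286 is possible. At that floor no ratio could pass alone after adjustment over the 9, so the lack of calls says little about any single ratio.

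**Figure D5:**
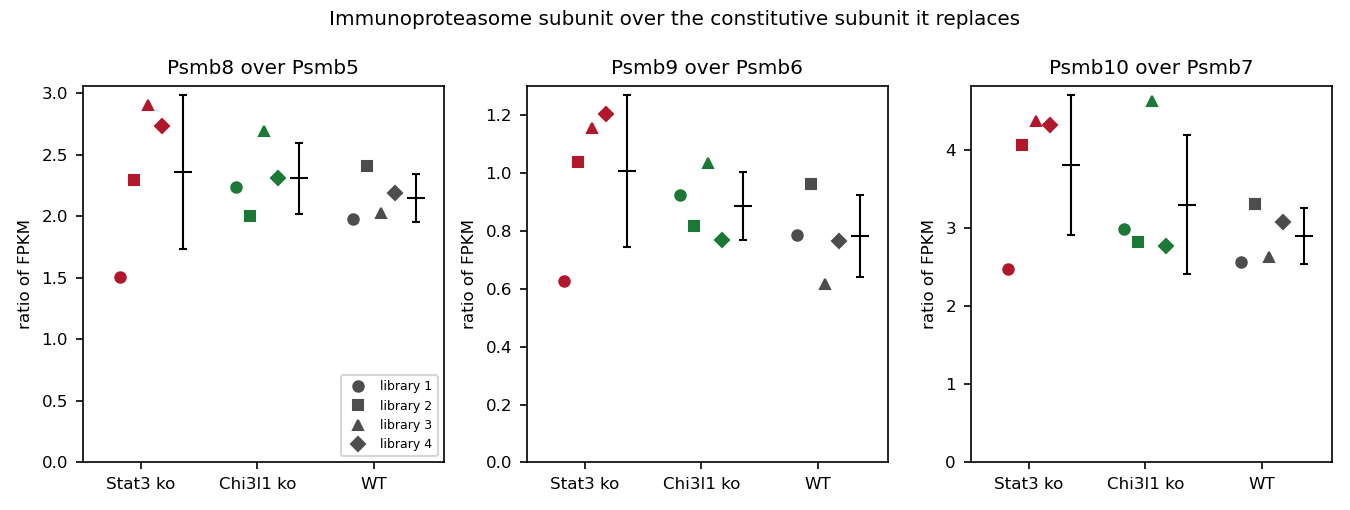
Ratio of FPKM of the immunoproteasome subunit to the constitutive subunit it replaces, in each library, with the mean and SD of 4 libraries beside the points. Stat3 ko averages 3.81 ± 0.900 for Psmb10 over Psmb7, against 3.30 ± 0.887 in Chi3l1 ko and 2.90 ± 0.355 in WT, and the groups overlap in all 3 panels.

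Around the members, some genes of the pathway differed in Stat3 ko. Of 12 genes that trim, load or fold peptides and heavy chains, 5 were lower and 0 higher in Stat3 ko than in WT, where 8.39% of all tested genes were lower and 5.61% higher. Their median was -0.33, against -0.02 over all tested genes. They were the endoplasmic reticulum chaperones Hspa5 (BiP), Hsp90b1, Calr (calreticulin) and Canx (calnexin), and Pdia3, which joins calreticulin and tapasin in the peptide loading complex. Hspa5 had 145, 137, 261 and 240 FPKM in Stat3 ko 1 to 4, 360, 326, 400 and 417 FPKM in Chi3l1 ko 1 to 4, and 393, 389, 318 and 408 FPKM in WT 1 to 4. Its Stat3 ko values did not overlap those of the other groups. It fell by 0.99 ± 0.21 on the log2 scale against WT (limma, adjusted p = 0.014), and the call stood with each of the 12 libraries left out in turn. Without the libraries with over 2% mitochondrial counts the difference was -0.58 ± 0.12 (adjusted p = 0.024), and in a fit of only these groups the adjusted p was 0.058.

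Calr had 231, 224, 392 and 419 FPKM in Stat3 ko 1 to 4, 528, 426, 542 and 507 FPKM in Chi3l1 ko 1 to 4, and 516, 548, 430 and 514 FPKM in WT 1 to 4. Stat3 ko 1 and 2, which have the most mitochondrial counts, were the lowest. The difference of Calr against WT was -0.72 ± 0.21 (adjusted p = 0.042), of Pdia3 -0.75 ± 0.21 (0.036), of Hsp90b1 -0.74 ± 0.18 (0.021) and of Canx -0.49 ± 0.14 (0.048), all from limma. These 4 calls ended without the libraries with over 2% mitochondrial counts, where Calr was at -0.30 (adjusted p = 0.135), Pdia3 at -0.33 (0.088), Hsp90b1 at -0.41 (0.073) and Canx at -0.24 (0.188). Leaving out 1 library ended the call of Hsp90b1 without WT 1 (0.069) or WT 4 (0.063). It ended those of Pdia3 (adjusted p of 0.051 to 0.094) and Calr (0.060 to 0.110) for each library except Stat3 ko 3, Stat3 ko 4 and Chi3l1 ko 2, and that of Canx (0.051 to 0.132) for each except Stat3 ko 3 and Stat3 ko 4. The same 5 genes were called lower in Stat3 ko than in Chi3l1 ko, where Hspa5 was at -0.99 (adjusted p = 0.014) and was the only one of the 5 whose call stood with each library left out. The epithelial markers were lowest in Stat3 ko 1 and 2 as well, and their part was not tested.

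Of 17 other class I and class I-like heavy chains, 16 were tested, and 3 were higher and 0 lower in Stat3 ko than in WT, where 5.61% of all tested genes were higher and 8.39% lower. Their median was 0.04, against -0.02 over all tested genes. H2-T24, a nonclassical chain, had 3.52, 6.82, 7.97 and 4.20 FPKM in Stat3 ko 1 to 4, 1.31, 2.18, 2.25 and 1.28 FPKM in Chi3l1 ko 1 to 4, and 1.31, 2.34, 2.15 and 2.25 FPKM in WT 1 to 4. The 4 Stat3 ko libraries lay above the other 8. H2-T24 rose by 1.10 ± 0.23 against WT (limma, adjusted p = 0.014), and only leaving out WT 1 took the adjusted p over the threshold (0.051). H2-M2, another nonclassical chain, had 3.21, 12.7, 11.1 and 3.28 FPKM in Stat3 ko 1 to 4, 1.09, 1.43, 0.905 and 0.686 FPKM in Chi3l1 ko 1 to 4, and 1.26, 2.77, 0.815 and 0.708 FPKM in WT 1 to 4. It was highest in the Stat3 ko libraries with the most T and B cell marker RNA, whose part was not tested. Its difference was 1.71 ± 0.40 (adjusted p = 0.022), and leaving out Stat3 ko 2 (0.051), WT 1 (0.065), WT 3 (0.059) or WT 4 (0.066) ended the call. Fcgrt, the neonatal Fc receptor, differed by 1.63 ± 0.46 (adjusted p = 0.039). It was at 156 FPKM in Stat3 ko 1 and 31.6 to 49.4 FPKM in the other Stat3 ko libraries, against 13.3 to 25.3 FPKM in WT, and its call ended for each library left out except Stat3 ko 1, Stat3 ko 3, Stat3 ko 4 and Chi3l1 ko 2 (adjusted p of 0.053 to 0.112). In Stat3 ko against Chi3l1 ko, H2-T24 and H2-M2 were called and Fcgrt was not.

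Of 21 regulators of class I transcription, 20 were tested and 1 was called in Stat3 ko against WT, where 14.0% of all tested genes were called. Their median was 0.07. Irf8, an interferon regulatory factor of myeloid and B cells, had 10.7, 26.3, 18.8 and 11.5 FPKM in Stat3 ko 1 to 4, 6.39, 6.52, 8.26 and 6.17 FPKM in Chi3l1 ko 1 to 4, and 5.26, 9.85, 4.99 and 5.98 FPKM in WT 1 to 4. All 4 Stat3 ko libraries were above the other 8, and Irf8 was highest in Stat3 ko 2 and 3, where B and T cell markers were highest, whose part was not tested. It rose by 1.2 ± 0.27 against WT (limma, adjusted p = 0.018), and leaving out WT 1 (0.063), WT 3 (0.051) or WT 4 (0.051) took it over the threshold. Irf1 was at 37.4, 57.4, 67.4 and 65.2 FPKM in Stat3 ko 1 to 4, 49.6, 52.6, 66.8 and 38.4 FPKM in Chi3l1 ko 1 to 4, and 40.4, 54.9, 35.3 and 46.4 FPKM in WT 1 to 4. Like the members, it was highest in Chi3l1 ko 3 and WT 2 within their groups and lowest of Stat3 ko in Stat3 ko 1. It had a difference of 0.34 ± 0.22 for Stat3 ko against WT, which did not pass (adjusted p = 0.286). Ifng did not pass the filter on low values, with 3 to 45 counts per library. It was at 0.926, 0.641, 0.772 and 0.817 FPKM in Stat3 ko 1 to 4, 0.466, 1.15, 1.74 and 0.130 FPKM in Chi3l1 ko 1 to 4, and 0.302, 1.04, 0.325 and 0.767 FPKM in WT 1 to 4. Its highest value was in Chi3l1 ko 3 and its highest in WT in WT 2, the libraries where the members were highest in those groups, while in Stat3 ko it was highest in Stat3 ko 1, where they were lowest.

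Of 15 constitutive 20S proteasome subunits, 0 were called in Stat3 ko against WT by limma, where 14.0% of all tested genes were. At an unadjusted p under 0.05 there were 0 as well, where 4654 of the 13643 tested genes passed. Of the 15 differences, 14 were below 0, with a median of -0.13, against -0.02 over all tested genes. In Chi3l1 ko against WT 14 were below 0 as well, with a median of -0.04, and in Stat3 ko against Chi3l1 ko 13 were, with a median of -0.08. The count of signs was thus not particular to Stat3 ko. Psmb5 differed by -0.26 (adjusted p = 0.196), Psmb6 by -0.19 (0.253) and Psmb7 by -0.15 (0.361). The 3 subunits of the PA28 activator, which opens the proteasome and of which Psme1 and Psme2 are induced by interferon gamma, had a median of -0.03. In Stat3 ko against WT 0 of them were called and 0 had an unadjusted p under 0.05, against the same shares of all tested genes. In Chi3l1 ko against WT, none of the genes in these 5 lists was called by limma, where 0.00733% of all tested genes were, a single gene.

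The genes whose levels most resembled the members were named by Pearson's r with the mean z-score of the 10 over the 12 libraries, among all other tested genes. The 8 highest were Psme2 (r = 0.96), Psme1 (0.96), Ifi47 (0.95), Irgm1 (0.95), H2-T10 (0.95), Gm4951 (0.95), Slc2a6 (0.94) and Ube2l6 (0.94). Psme2 was at 106 ± 29.8 FPKM in Stat3 ko, 115 ± 20.6 FPKM in Chi3l1 ko and 107 ± 28.2 FPKM in WT (SD, n = 4 each), so that it too did not separate the genotypes. Ifi47 and Irgm1 encode interferon-inducible GTPases, and Ube2l6 the conjugating enzyme of ISG15. The lowest r included Borcs7 (-0.91), Braf (-0.88) and Sorcs2 (-0.87). Since these genes were picked for their r from 13643, the values are a description of these 12 libraries.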

How the data were processed

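The authors deposited FPKM per gene for all 12 libraries, with gene lengths and coordinates, and comparison tables with raw counts, log2 fold changes and p-values limited to genes with an unadjusted p under 0.05. None of the 10 members is in those tables, which were used only for their counts. Those tables also hold a normalised signal per library, which is the count divided by a size factor as deposited by the authors and was not used. Per the submitters' processing notes, the tools were Trimmomatic, STAR, HTSeq, edgeR and limma. The notes also list GRCm38 (mm10) as the genome, and they state no version and no settings. From the FPKM and gene lengths, whole counts were recovered for every value within 0.001 read, and 0 of 54472 deposited counts differed from them. Library depth was 16217143 to 22607123 counts. Gene names that a spreadsheet had turned into dates (27) were restored by identifier, and coordinates match GENCODE M21 for 98.0% of genes.

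The main test was limma 3.58.1 with an intensity trend on log2(FPKM + 1), which shrinks changes of low genes, over the 13643 genes that reached 1 FPKM in 4 or more libraries. The fit estimated a mean for each of the 3 genotypes (R 4.3.3). Tests were two-sided, and calls were made at 0.05 after Benjamini-Hochberg adjustment. Intervals are 95% intervals. edgeR 4.0.16 and DESeq2 1.42.0 were run on the recovered counts as alternatives. Values were also refitted with a pseudocount of 0.1, unfiltered or filtered at a mean of 5 FPKM, rescaled by median-of-ratios or by quantile normalization, with array weights, and in the compared groups alone. Each library was left out in turn, as were the 3 in which mitochondrial counts exceeded 2%. The scripts were tested on simulated data. Ratios used exact permutation tests of 4 against 4 libraries, and correlations 100000 permutations (Python 3.11.15, scipy 1.17.1, numpy 2.4.6, pandas 2.3.3, matplotlib 3.10.9). No 2 libraries of a group held the same counts.

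The members, the gene lists and the rule for named genes were chosen with earlier results of these data known. Named were all members, up to 4 called genes with the lowest adjusted p in each list of the pathway (in the list of folding partners all 5 called genes are named, the last one after its values were seen), Psmb5 to Psmb7, Ifng, Irf1, the targeted genes, and the 8 genes most and the few least like the members. Some genes under this rule are not reported here.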

Additional observations from a re-analysis of the deposited data

Results flagged for a closer look

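A library was set apart where its gap to the nearest other library of its group took up more of the group's whole range than Dixon's 95% criterion for 4 values allows, on log2(FPKM + 1). Of 30 groups tested, 10 members in 3 genotypes, 2 met this, and chance alone gives about 1 in 20. Nlrc5 in Stat3 ko 1 had a gap of 0.858 of the range, at 9.39 FPKM in Stat3 ko 1 against 23.9 to 27.8 FPKM in Stat3 ko 2 to 4. Tapbp in Chi3l1 ko 3 had a gap of 0.845 of the range, at 259 FPKM in Chi3l1 ko 3 against 192 to 201 FPKM in the other Chi3l1 ko libraries.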

How the results depend on the processing

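No member was called in any comparison under any alternative run. The lowest adjusted p of a member was 0.105 for Stat3 ko against WT (B2m at -0.75 under quantile normalization), 0.844 for Chi3l1 ko against WT and 0.110 for Stat3 ko against Chi3l1 ko (1 library left out). The count of ratios past the threshold stayed at 0. Without the libraries with over 2% mitochondrial counts, too few were left for any ratio to pass, so that 0 was fixed in advance. The count of Nlrc5 relations was 8, with 7 to 9 under the alternatives and 4 without the 2 libraries farthest from the median of Nlrc5. Signs of uncalled differences did turn. In Stat3 ko against WT, array weights gave 0.061 for H2-K1, 0.33 for Tap1, 0.078 for Tapbp and 0.14 for Psmb8. Without the libraries with over 2% mitochondrial counts it was 0.16 for H2-K1, 0.093 for B2m, 0.46 for Tap1, 0.18 for Tapbp and 0.24 for Psmb8. Tap1 was 0.015 under median-of-ratios scaling, 0.065 with edgeR and 0.065 with DESeq2, and H2-D1 -0.32 under quantile normalization. In Chi3l1 ko against WT, B2m was -0.11 under quantile normalization and Psmb8 -0.0014 with DESeq2. In Stat3 ko against Chi3l1 ko, H2-D1 was 0.017 under median-of-ratios scaling, and array weights gave 0.16 for Tap1, 0.014 for Psmb8 and 0.14 for Nlrc5. Without the libraries with over 2% mitochondrial counts it was 0.070 for H2-D1, 0.34 for Tap1, 0.019 for Tapbp, 0.21 for Psmb8, 0.24 for Nlrc5 and 0.23 for the log2 ratio of Psmb8 over Psmb5. The cause was not tested.

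Leaving out 1 library gave these ranges where a sign turned. In Stat3 ko against WT they were -0.087 to 0.19 for H2-D1, -0.24 to 0.072 for H2-K1, -0.13 to 0.36 for Nlrc5, -0.35 to 0.11 for Psmb8, -0.042 to 0.44 for Psmb9, -0.26 to 0.33 for Tap1, -0.041 to 0.29 for Tap2, -0.33 to 0.035 for Tapbp and -0.022 to 0.30 for Psmb8 over Psmb5. In Chi3l1 ko against WT they were -0.048 to 0.22 for Psmb10, -0.085 to 0.11 for Psmb8, -0.024 to 0.26 for Psmb9, -0.048 to 0.18 for Tap1, -0.043 to 0.16 for Tap2 and -0.011 to 0.24 for Psmb10 over Psmb7. In Stat3 ko against Chi3l1 ko they were -0.18 to 0.035 for H2-D1, -0.25 to 0.24 for Nlrc5, -0.0052 to 0.35 for Psmb10, -0.35 to 0.11 for Psmb8, -0.16 to 0.32 for Psmb9, -0.33 to 0.26 for Tap1, -0.11 to 0.22 for Tap2 and -0.12 to 0.20 for Psmb8 over Psmb5.

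Among the other pathway genes in Stat3 ko against WT, a fit of only these groups ended all calls but that of H2-T24, with adjusted p of 0.058 for Hspa5, 0.071 for Hsp90b1, 0.097 for Pdia3, 0.106 for Calr, 0.106 for Canx, 0.068 for Irf8, 0.075 for H2-M2 and 0.085 for Fcgrt. With no filter the adjusted p was 0.110 for Calr, 0.090 for Pdia3, 0.089 for Canx and 0.080 for Fcgrt, and with array weights 0.080 for Calr, 0.064 for Pdia3, 0.101 for Canx and 0.065 for Fcgrt. Quantile normalization gave 0.055 for Calr, 0.052 for Pdia3 and 0.080 for Canx, and median-of-ratios scaling 0.056 for Canx. Without the libraries with over 2% mitochondrial counts it was 0.135 for Calr, 0.088 for Pdia3, 0.073 for Hsp90b1, 0.188 for Canx and 0.056 for Fcgrt. No paired analysis was possible because the labels give no replicate numbers that pair libraries. Each member had at least 1330 counts in every library, the lowest being a count of Nlrc5. The part of depth or of the spread between libraries in the lack of calls was not tested.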
